A study of Mus musculus with 7 samples.

Results

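Pitx1, Pitx3, Lmx1b, Alx1, Alx4, Otx1 and Otx2 are homeobox genes whose products pattern the front of the head, the eye and the mesenchyme around it. They were taken by gene symbol from the deposited table, where all 7 were found among 47729 genes, and all 7 had a mean of at least 10 normalized counts and so entered the test. RNA was sequenced from surface ectoderm between the eye and the brain of mouse embryos at stage E12.5, cut out of stained frozen head sections by laser, with 3 embryos pooled for each library. Wild type was represented by 3 libraries (replicates 2, 3 and 4) and the miR-205 knockout by 4 (replicates 1 to 4); the labels give no strain and no further allele or agent for either group. Each replicate is a pool of embryos, so spread between single embryos is not seen. miR-205 is a microRNA of epithelia that lowers messages carrying a match to its seed, and the study asked what its loss does in the tissue that forms the lacrimal gland.

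Homeobox genes encode transcription factors that bind DNA through a homeodomain, a fold of helices of which the last lies in the major groove. Otx1 and Otx2 act in the anterior neural plate, the eye and the sense organs, and mice lacking Otx1 have defects of the ear, the eye and the lacrimal glands. Alx1 and Alx4 act in the cranial neural crest mesenchyme of the face and around the eye, and Alx4 is known for a role in the mesenchyme that induces the mouse lacrimal gland. Pitx1 acts in the first branchial arch, the pituitary and the hindlimb, Pitx3 in the lens, in midbrain dopaminergic neurons and in skeletal muscle, and Lmx1b, a LIM homeodomain factor, in dorsal limb and periocular mesenchyme.

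The stretch of the homeobox that encodes the DNA-contacting helix is shown because it divides the 7 genes by a codon. The 30 coding bases run from homeodomain codon 47 to codon 56 on the coding strand, from GENCODE M21 transcripts on GRCm38, with codon 50 in capitals.
Otx1: gtttggttcAAGaaccgccgcgccaagtgc
Otx2: gtatggtttAAGaatcgaagagctaagtgc
Pitx1: gtctggttcAAGaaccggcgagccaaatgg
Pitx3: gtgtggttcAAGaaccggcgcgccaagtgg
Alx1: gtttggtttCAAaatcgaagggccaagtgg
Alx4: gtttggttcCAGaaccggagggccaagtgg
Lmx1b: gtctggtttCAGaaccaaagagcaaagatg
The Otx and Pitx genes carry AAG, a lysine codon, at that place, and Alx1, Alx4 and Lmx1b carry CAA or CAG, which are glutamine codons. Residue 50 is known to set which bases follow the core of the site that a homeodomain binds. Over these 30 bases Pitx1 and Pitx3 shared 27, Alx1 and Alx4 shared 26, and Otx1 and Otx2 shared 23. Pairs across families were as alike: Pitx3 shared 27 with Otx1 and 26 with Alx4, and Otx1 shared 25 with both Pitx1 and Alx4, more than with Otx2. The bases lie at chr11:21997029-21997058 (minus strand) for Otx1 and at chr14:48659297-48659326 (minus) for Otx2. They lie at chr13:55826582-55826611 (minus) for Pitx1 and at chr19:46136576-46136605 (minus) for Pitx3. Those of Alx1 lie at chr10:103022276-103022305 (minus) and those of Alx4 at chr2:93675296-93675325 (plus). In Lmx1b, on the minus strand of chromosome 2, an intron interrupts the stretch.

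Because miR-205 is what the knockout embryos lack, its mature sequence is shown with its seed, bases 2 to 8, in capitals.
mmu-miR-205-5p: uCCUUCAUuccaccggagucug
A message pairs with this seed through ATGAAGG, and with bases 2 to 7 through TGAAGG, which overlaps it; both were searched on the message strand, taking for each gene the annotated 3′ UTR of greatest length. ATGAAGG was found in the annotated 3′ UTR of Alx4 and in none of the other 6 members. Of 13541 tested genes with an annotated 3′ UTR, 12.4% held it, and of the 601 with a 3′ UTR of 0.8 to 1.25 times the length of that of Alx4, 35.4% did. The match of Alx4 is shown with its neighbouring bases, the match in capitals, together with the match to bases 2 to 7 in Otx1.
Alx4: gctgccttgcgcATGAAGGccaaggagcac
Otx1: gaggatcggaagTGAAGGaaacagctaag
The Alx4 stretch lies at chr2:93677505-93677534 (GRCm38, plus strand) and the Otx1 stretch at chr11:21995225-21995253 (minus). In Alx4 the match counts as 3′ UTR in 1 annotated coding transcript only, the one with a 3′ UTR of 5807 bases, and lies inside the coding sequence of the other. TGAAGG occurred 5 times in the 3′ UTR of Alx4, the longer match included, 2 times in that of Lmx1b and once in that of Otx1. It was not found in those of Pitx1, Pitx3, Alx1 and Otx2, and 38.6% of the tested genes with a 3′ UTR held it. Among genes with a 3′ UTR of similar length, the share was 84.2% for Alx4, 70.9% for Lmx1b and 42.0% for Otx1. A match of letters does not show that the microRNA acts there.

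The row of miR-205 itself was at 0 in all 7 libraries, so it does not check the genotype labels. Library totals were between 8903523 and 12504790 recovered reads, and 15029 genes with a mean of at least 10 normalized counts were tested. All 14 surface ectoderm markers had reads in each library, and their summed level was 37686 to 47055 normalized counts across the wild type and 26408 to 43195 across the knockout libraries, lowest in knockout replicates 1 and 2. Those libraries and wild type replicate 2 had fewer than 10000000 reads. Markers of other cell types were present as well, so the libraries hold more than ectoderm. The largest sums of any marker list were those of the 10 erythroid markers, all with reads in each library. They were 195262 to 771026 normalized counts across the wild type and 163400 to 406088 across the knockout libraries, highest in wild type replicate 2. The 12 mesenchyme markers summed to 18441 to 21620 normalized counts across the wild type and 19669 to 30778 across the knockout libraries, highest in knockout replicates 1 and 2, and all 12 had reads in each library. In such bulk samples, fewer cells of a type and less RNA per cell cannot be told apart.

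Otx1 stood above the other 6 genes, and Pitx3 and Otx2 were the scarcest in wild type. Levels between genes are compared as normalized counts per kilobase (kb) of annotated exon. Otx1 had a wild type mean of 462 ± 87.0 normalized counts per kb (SD, n = 3) and a knockout mean of 355 ± 124 (SD, n = 4), and its wild type mean exceeded that of 90.9% of the tested genes with a known length. Alx1 followed with 73.7 ± 40.6 across the wild type and 129 ± 80.1 across the knockout libraries. Alx4 had 45.3 ± 15.9 and 44.6 ± 14.4 per kb, close to the middle of the tested genes at percentile 46.9. Pitx1 had 33.0 ± 14.3 and 35.5 ± 19.4 per kb. Lmx1b had 18.8 ± 4.42 and 18.1 ± 3.74 per kb. Below these, Otx2 had 14.4 ± 4.74 normalized counts per kb in wild type and 16.9 ± 20.5 in knockout, a group whose SD exceeds its mean. Pitx3 had 4.66 ± 4.60 and 20.5 ± 21.3 per kb, at percentile 8.38 in wild type.

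The order of the levels was separated by the libraries at its ends and not in its middle. In wild type each library of Otx1 (at least 362 normalized counts per kb) lay above each of Alx1 (at most 119), and each of Otx2 (at least 9.57) lay just above each of Pitx3 (at most 9.20). The neighbours between Alx1, Alx4, Pitx1, Lmx1b and Otx2 overlapped. In knockout Otx1 (at least 224 per kb) remained above Alx1 (at most 214), and all other neighbours overlapped. With the longest coding transcript in place of all annotated exons, the wild type level became 898 per kb for Otx1 and 158 for Alx1, and Otx2 at 23.4 passed Lmx1b at 19.1.

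**Figure D1:**
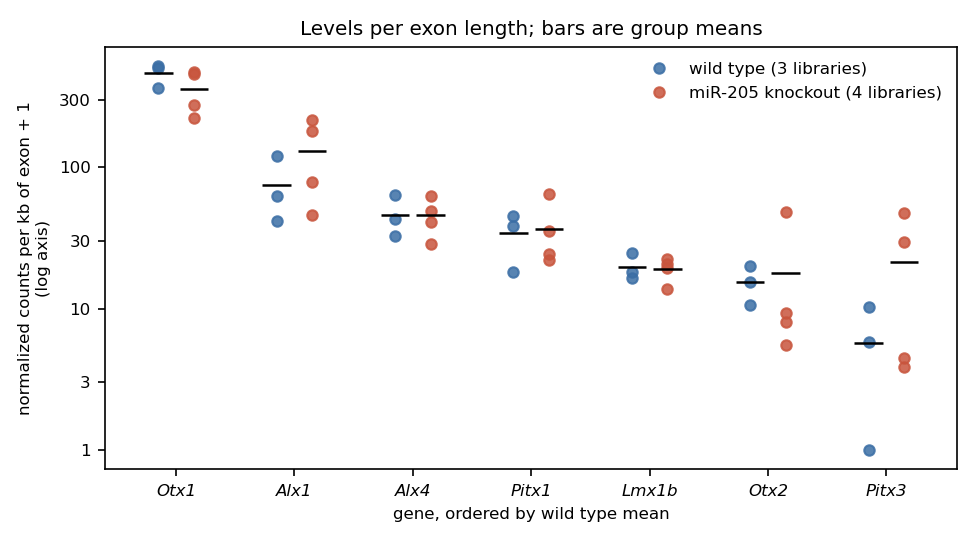
Level of each gene in each library as normalized counts per kb of annotated exon, plus 1, on a log axis; points are libraries and bars are group means. Otx1 lies above the other genes in both groups, while Alx1, Alx4, Pitx1, Lmx1b and Otx2 overlap their neighbours in wild type.

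Otx1, the most abundant member, had 1960, 2810 and 2741 normalized counts in wild type replicates 2, 3 and 4 and 1213, 1496, 2540 and 2456 in knockout replicates 1 to 4. Knockout replicates 1 and 2 lay below each wild type library and replicates 3 and 4 lay within the wild type range, so the groups overlapped. The log2 difference of knockout over wild type was -0.43 (SE 0.30, 95% interval -1.13 to 0.27, adjusted p 0.652 by limma-trend). Without knockout replicates 1 and 2 it was 0.015, and without knockout replicate 1 alone it was -0.23. Its profile over the 7 libraries followed the summed surface ectoderm markers, with a root mean square difference of 0.18 on the centred log2 scale, against 0.43 for the gene around its own mean. The genes with the most similar profiles among 13377 named genes were Trim29, Upk3bl and Sytl1, at 0.081, 0.084 and 0.087. Trim29 had 1949, 2866 and 2563 normalized counts across wild type, and 1371, 1447, 2514 and 2388 across knockout (in replicate order, as in later lists), nearly the values of Otx1. The part of the ectoderm share in the Otx1 difference was not tested.

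Otx2 had 61.0, 40.4 and 80.4 normalized counts in wild type replicates 2, 3 and 4 and 201, 29.7, 35.4 and 19.3 in knockout replicates 1 to 4. Knockout replicate 1 lay above all other libraries and the other 3 knockout libraries lay below each wild type library. The arithmetic mean was therefore higher in knockout (71.3 ± 86.6 against 60.6 ± 20.02, SD) while the log2 difference was -0.36 (SE 0.72, 95% interval -1.99 to 1.26, adjusted p 0.884 by limma-trend). Count tests on recovered reads put it at 0.22 (edgeR) and 0.23 (DESeq2), and without knockout replicate 1 it was -1.07. Without knockout replicate 4 it was 0.035. Knockout replicate 1 was also the highest library for Lhx2, a regulator of forebrain and optic neuroepithelium, with 653 normalized counts against 52.4 to 147 in wild type. Knockout replicate 2, in which Otx2 was low, had 285 of Lhx2. The 10 forebrain and optic markers summed to 328 to 651 normalized counts in wild type and to 1394, 1284, 191 and 323 in knockout replicates 1 to 4. Of these 10 markers, 7 had reads in each library and 3 were at 0 in some. Rpe65, a marker of the retinal pigment epithelium, in which Otx2 is known to act, was at 0 in all 7 libraries. It therefore does not tell the libraries apart. Tyrp1 was at 0 in knockout replicate 1. Of the 8 pigment epithelium and melanocyte markers, 5 had reads in each library. Among these, Pmel and Dct had 228 and 159 normalized counts in knockout replicate 1. Tyr and Mlana had 23.7 and 13.5 there, below each wild type library. The list was not low throughout in that library. Mitf had 53.0 there, against 30.5 to 56.1 in wild type, and Best1 had 16.9, against 0 to 9.46. Summed pigment epithelium and melanocyte markers ranged over 416 to 2698 normalized counts for wild type, with 494 in knockout replicate 1, below the other knockout libraries at 1351 to 1607. The part of captured neuroepithelium in the Otx2 value was not tested. The most similar profiles were those of Nppc, Fam65c and Ctxn3, at 0.39, 0.42 and 0.44.

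Alx1 had 233, 685 and 355 normalized counts in wild type replicates 2, 3 and 4 and 1230, 1029, 449 and 261 in knockout replicates 1 to 4. Knockout replicates 1 and 2 exceeded each wild type library, and the other 2 lay within the wild type range. Its log2 difference was 0.69 (SE 0.65, 95% interval -0.89 to 2.27, adjusted p 0.745 by limma-trend), and without knockout replicates 1 and 2 it was -0.17. It ranged from 0.33 (without wild type replicate 2) to 1.11 (without wild type replicate 3, or without knockout replicate 4) when 1 library was left out. The spread within groups was wide for its level: the SD of 0.95 on the log2 scale exceeded that of 99.2% of the 5017 tested genes whose mean lay within 2-fold of that of Alx1. The gene with the most similar profile was Emx2, a regulator of the cerebral cortex, with 75.7, 182 and 73.9 normalized counts across wild type, and 256, 201, 77.8 and 58.6 across knockout, at a root mean square difference of 0.28. Rftn2 (0.31) and Rapgef4 (0.35) followed. In the same 2 knockout libraries the sums of mesenchyme, endothelial, forebrain, macrophage and skeletal muscle markers were at their highest. Endothelial markers, all 8 with reads in each library, summed to 541 to 793 normalized counts across wild type and to 1648 and 2211 in knockout replicates 1 and 2. Emx2 is itself in the forebrain list, and the part of these cell types in the Alx1 difference was not tested.

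Alx4 had 222, 442 and 295 normalized counts in wild type replicates 2, 3 and 4 and 341, 439, 196 and 284 in knockout replicates 1 to 4. The groups covered almost the same range. Its log2 difference was -0.024 (SE 0.30, 95% interval -0.70 to 0.65, adjusted p 0.985 by limma-trend). The sign turned without wild type replicate 3 (0.24), knockout replicate 3 (0.18) or knockout replicate 4 (0.0067). Like Alx1 it was lower in wild type replicate 2 than in the other wild type libraries and highest there in replicate 3. Its nearest profiles were those of Wif1, which encodes a secreted Wnt inhibitor, at 0.16, Zbtb11os1 at 0.18 and Fmnl3 at 0.19. Wif1 had 128, 196 and 154 normalized counts across wild type, and 164, 232, 123 and 138 across knockout.

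Pitx1 had 45.2, 118 and 100 normalized counts in wild type replicates 2, 3 and 4 and 168, 61.6, 91.9 and 56.01 in knockout replicates 1 to 4. It was highest in knockout replicate 1 and lowest in wild type replicate 2, and the groups overlapped. The log2 difference was 0.075 (SE 0.45, 95% interval -0.92 to 1.07, adjusted p 0.967 by limma-trend). Leaving out wild type replicate 2 turned it to -0.34, and leaving out knockout replicate 1 to -0.25. The most similar profiles were those of Itih5 (0.23), Il4ra (0.25) and Pdk4 (0.26), each highest in knockout replicate 1 as well.

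Pitx3 was near the limit of detection outside a few libraries. It had 7.32, 0 and 14.0 normalized counts in wild type replicates 2, 3 and 4 and 44.0, 71.5, 5.30 and 4.38 in knockout replicates 1 to 4. These values rest on 6, 0, 15, 39, 65, 6 and 5 reads, and the count of 0 allows up to 3 reads, or 2.58 normalized counts, in wild type replicate 3 (counting error only). Knockout replicates 1 and 2 lay above the wild type libraries and replicates 3 and 4 did not. Its log2 difference of 1.87 (SE 1.22, 95% interval -0.87 to 4.60, adjusted p 0.625 by limma-trend) was the widest of the members and fell to 0.22 when those 2 libraries were left out, or to 0.70 when wild type replicate 3 was.

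Pitx3 followed the skeletal muscle markers from library to library. The 9 muscle markers summed to 353, 50.7 and 1992 normalized counts in wild type replicates 2, 3 and 4 and to 2921, 10314, 354 and 108 in knockout replicates 1 to 4. The highest 3 libraries were the same and in the same order for gene and list: knockout replicate 2, knockout replicate 1, wild type replicate 4. Wild type replicate 3 was lowest for both, and there 2 of the 9 markers were at 0. Acta1, the skeletal muscle actin, had 39.1, 0.860 and 320 normalized counts across wild type, and 420, 1745, 46.9 and 8.75 across knockout. The most similar profiles to Pitx3 were those of Arfgef3 (0.41), Tnnt1, a troponin of slow muscle (0.48), and Acta2, the smooth muscle actin (0.61). The forebrain and optic markers were the second nearest list to Pitx3, at 1.24 against 0.90 for muscle. Their sums were highest in the same 3 libraries, in another order. They were 1394 in knockout replicate 1, 1284 in knockout replicate 2 and 651 in wild type replicate 4. Pitx3 is also known in lens and in midbrain dopaminergic neurons. The lens sum was highest in wild type replicate 2 at 4793 normalized counts, where Pitx3 had 7.32. It was next highest in knockout replicate 2 at 2550, where Pitx3 was highest. Foxe3, a lens epithelium factor, had 1 read in that library (1.22 normalized counts) and 0 in the others, too few to compare. Neuron markers were lowest in wild type replicate 3 as well, and their highest sum, 12983, was in knockout replicate 3, where Pitx3 had 5.30. The neuron list holds general neuron and progenitor genes and none chosen for dopaminergic neurons, so it does not speak for those. The part of captured muscle, neuroepithelium, lens or neurons in the Pitx3 difference was not tested.

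Lmx1b was the steadiest of the 7 genes. It had 116, 74.8 and 84.2 normalized counts in wild type replicates 2, 3 and 4 and 90.3, 62.7, 105 and 95.4 in knockout replicates 1 to 4. The highest library was 1.85 times the lowest, against 2.25 times for Alx4, 2.32 for Otx1, 3.72 for Pitx1, 5.27 for Alx1 and 10.4 for Otx2. Its log2 difference was -0.052 (SE 0.27, 95% interval -0.66 to 0.56, adjusted p 0.960 by limma-trend), and it became 0.13 without wild type replicate 2 and 0.10 without knockout replicate 2. Its SD within groups of 0.32 on the log2 scale lay at percentile 36.8 of the 3332 tested genes with a mean within 2-fold of its own, while the other 6 members lay between percentiles 84.0 and 99.2. The nearest profiles were those of Tpmt (0.063), Xylt1 (0.092) and Vprbp (0.10). Knockout replicate 2, the lowest library for Lmx1b, was among the highest for Alx1 and Alx4.

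**Figure D2:**
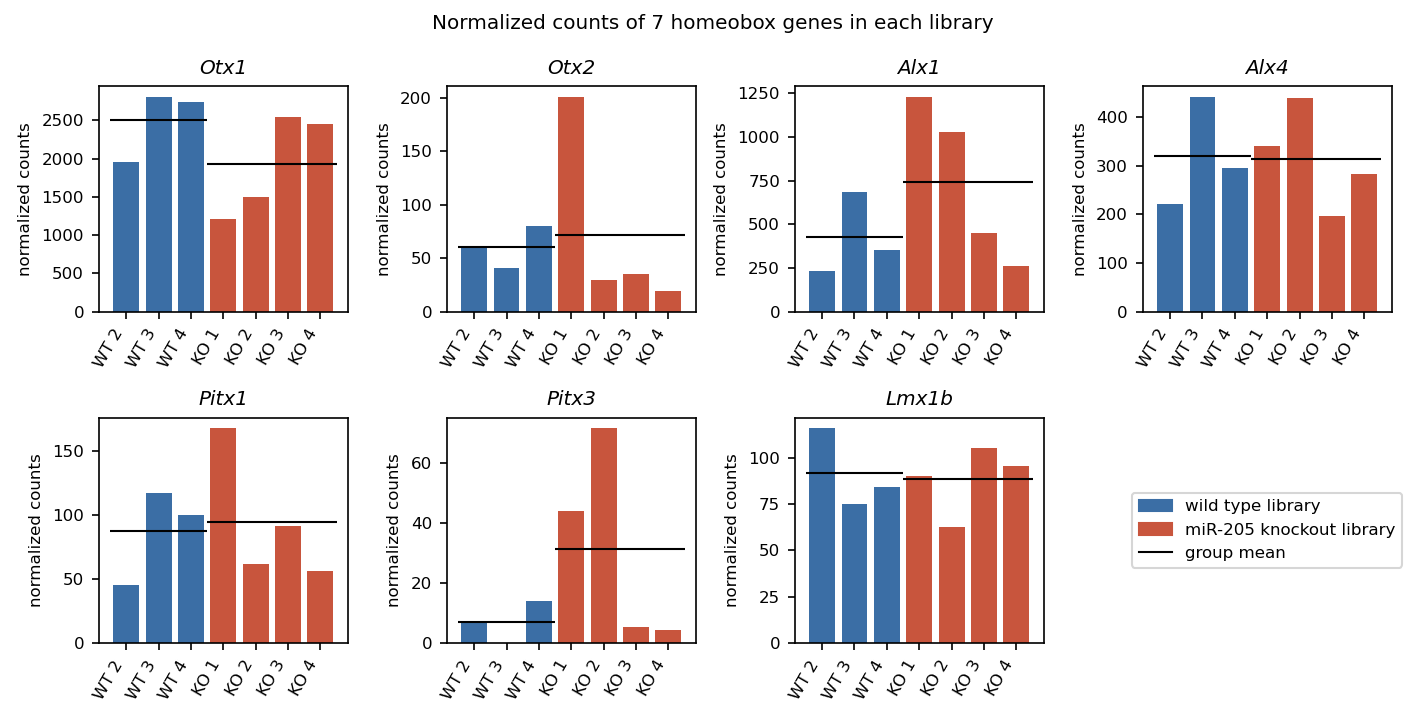
Normalized counts (vertical axis, from 0) of each gene in the 3 wild type and 4 knockout libraries; black lines are group means. Knockout replicates 1 and 2 are the lowest libraries for Otx1 and the highest for Alx1 and Pitx3, and knockout replicate 1 alone is high for Otx2 at 201 normalized counts.

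Between the groups, none of the 7 genes differed beyond the spread of the libraries. The limma-trend fit put 0 of 7 members past an adjusted p of 0.1, where 0 of 15029 tested genes did (0%), and 0 had an unadjusted p under 0.05, where 9.77% of the tested genes had. edgeR and DESeq2 on recovered reads also called 0 members; they called 0% and 1.48% of the tested genes. By either tool 0 members had an unadjusted p under 0.05, where 9.44% (edgeR) and 10.2% (DESeq2) of the tested genes had. Of the 6 members with an adjusted p in the authors' deposited table, none (0) passed 0.1, where 2.83% of the listed genes did, and the smallest of these was 0.550 for Otx1; Pitx3 had no adjusted p there. The groups overlapped for all 7 members, while 9.92% of the tested genes had groups that did not overlap. With 3 higher and 4 lower in knockout, the median log2 difference was -0.024 for the members and 0.0098 for all genes tested. The interval of Otx2 reached past 2-fold in both directions, those of Pitx3, Alx1 and Pitx1 past 2-fold upward and that of Otx1 past 2-fold downward.

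**Figure D3:**
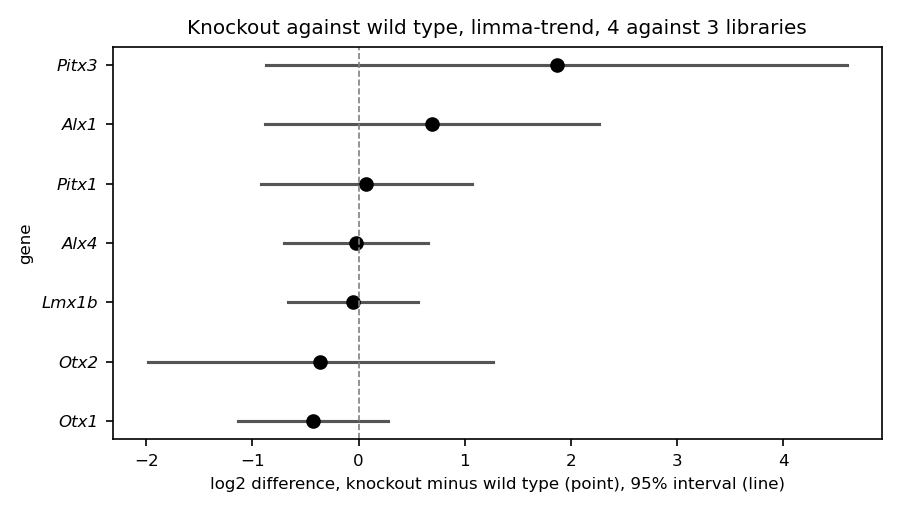
Log2 difference of knockout over wild type for each gene (points) with its 95% interval from limma-trend (lines), 4 against 3 libraries. Each interval contains 0, and the widest is that of Pitx3, from -0.87 to 4.60.

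Whether genes of one family moved differently was tested on the log2 ratio of the 2 genes in each library, with 3 family comparisons and exact permutation tests whose smallest two-sided p is 0.0571. The ratio of Alx1 to Alx4 was 0.069, 0.63 and 0.27 in wild type replicates 2, 3 and 4 and 1.85, 1.23, 1.19 and -0.12 in knockout replicates 1 to 4. It was higher in 3 of 4 knockout libraries than in each wild type library, a difference of 0.71 (two-sided exact permutation p 0.229, adjusted p 0.686). Without knockout replicate 1 it was 0.44 and without knockout replicate 4 it was 1.10. For Pitx1 over Pitx3 the difference was -1.79 (two-sided exact permutation p 0.457, adjusted p 0.686); it shrank to -0.36 when wild type replicate 3 was left out and to -0.97 when knockout replicate 2 was. For Otx1 over Otx2 it was -0.069 (p 0.971 by the same exact test, adjusted p 0.971). The Otx ratio was 2.59 in knockout replicate 1 and between 4.98 and 6.92 in the other libraries; without knockout replicate 1 its difference turned to 0.84, and without wild type replicate 3 to 0.28. None of the 3 differences passed an adjusted p of 0.1. With a smallest p of 0.0571, 1 pair differing alone could not pass it, so these tests cannot decide whether a single pair differed. The Alx1 to Alx4 difference exceeded the SD of that ratio in wild type (0.29) but not in knockout (0.83). Those of the Pitx and Otx pairs were smaller in size than the SD of either group.

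Among themselves the members had no common profile. The smallest root mean square difference of centred log2 values over the 7 libraries was 0.47, between Lmx1b and Otx1, followed by 0.62 between Pitx1 and Alx4 and 0.67 between Alx1 and Alx4. Otx1 and Otx2 differed by 1.28 and Pitx1 and Pitx3 by 2.00. Alx4 was the nearest member to Alx1, with Pitx1 also at 0.67, while for the Otx and Pitx pairs other members lay nearer. The nearest marker list was surface ectoderm for Otx1 (0.18) and Lmx1b (0.33), mesenchyme for Alx4 (0.39), Pitx1 (0.55) and Otx2 (0.90), endothelium for Alx1 (0.65) with mesenchyme at 0.68, and skeletal muscle for Pitx3 (0.90). For Lmx1b, Alx4, Pitx1 and Otx2 that difference was close to or above the spread of the gene around its own mean (0.27, 0.41, 0.61 and 1.01), so the list tells little of their profiles. For Otx1, Alx1 and Pitx3 it was less than the spread of 0.43, 0.87 and 1.91.

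**Figure D4:**
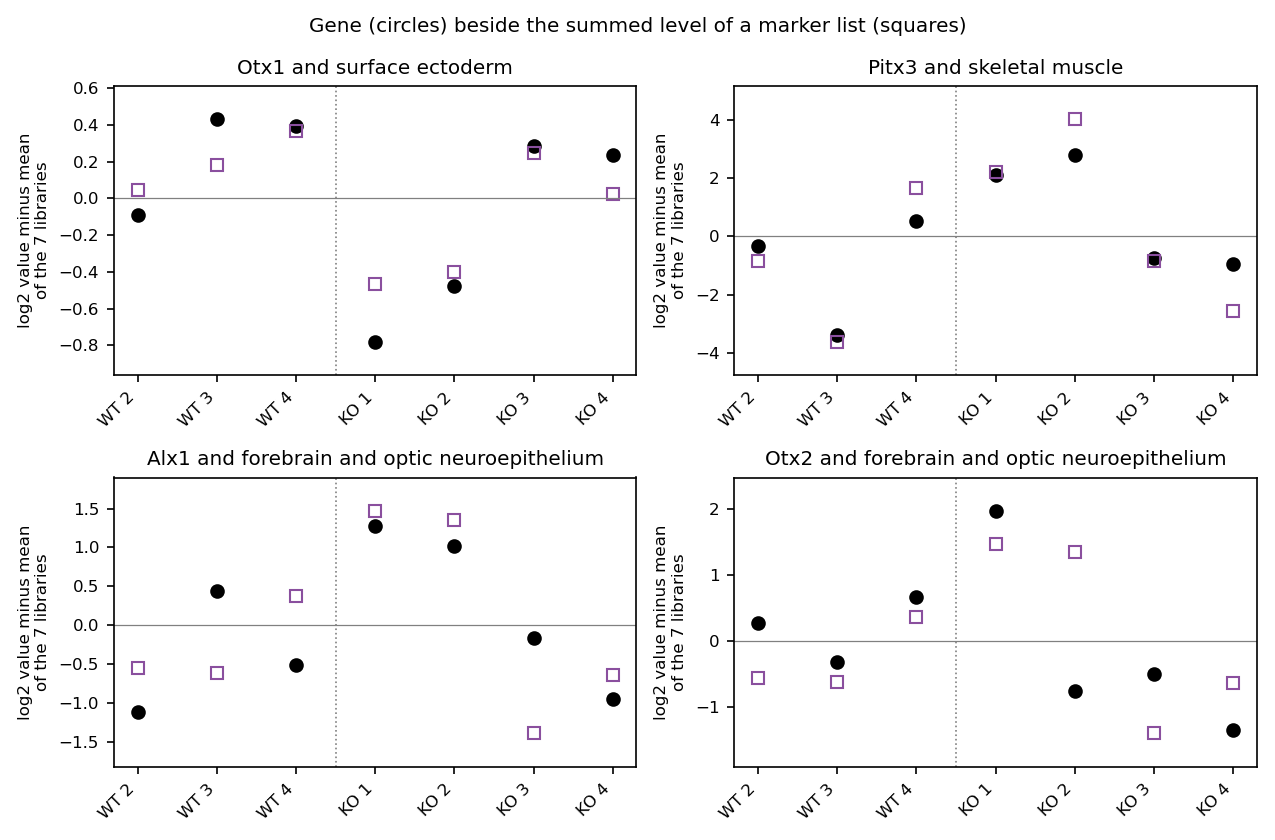
Centred log2 values (log2 value minus the mean of the 7 libraries) of Otx1, Pitx3, Alx1 and Otx2 as circles, beside the summed level of a marker list as squares. Otx1 lies close to the surface ectoderm markers and Pitx3 close to the skeletal muscle markers, while Otx2 departs from the forebrain and optic markers in knockout replicate 2. Alx1 and Otx2 are drawn beside the forebrain and optic list, which was not their nearest. The nearest was endothelium for Alx1 (0.65) and mesenchyme for Otx2 (0.90).

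The members' relatives in the paired and LIM classes of homeobox genes were compared in the same fit. Of 25 measured relatives, 20 were tested, 16 of them with higher and 4 with lower values in knockout (median log2 difference 0.48; of all genes tested 7774 were higher and 7255 lower), and limma-trend, edgeR and DESeq2 each put 0 of them past an adjusted p of 0.1; 1 had an unadjusted p under 0.05 by limma-trend, 1 by edgeR and 3 by DESeq2, where 9.77%, 9.44% and 10.2% of all tested genes had. All 14 markers of neurons and neural progenitors, cells that express many of these relatives, had higher values in knockout (median 1.57), and 13 of them had reads in each library, with sums of 1751 to 10714 normalized counts across the wild type and 7562 to 12983 across the knockout libraries; their part in these values was not tested. Lhx6, a regulator of oral mesenchyme and cortical interneurons, had 9.77, 8.60 and 15.9 normalized counts across wild type, and 27.1, 91.2, 36.2 and 28.9 across knockout (log2 difference 1.77, adjusted p 0.371 by limma-trend). Lhx5 had 120, 0 and 5.61 across wild type, and 39.5, 42.9, 403 and 80.5 across knockout. Prrx1, a limb and head mesenchyme factor, was the most abundant relative, at 1055 ± 66.1 and 1247 ± 311 normalized counts (SD).

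Of 22 factors of periocular and craniofacial mesenchyme, 21 were tested, 12 with higher and 9 with lower values in knockout (median log2 difference 0.15). By limma-trend, edgeR and DESeq2 0 of them passed an adjusted p of 0.1, and 2, 2 and 4 had an unadjusted p under 0.05; of all tested genes 9.77%, 9.44% and 10.2% had, so the first 2 counts are near the background. Foxf2 had 17.1, 9.46 and 11.2 normalized counts across wild type, and 42.9, 95.6, 24.8 and 19.3 across knockout, so that all 4 knockout libraries exceeded the 3 of wild type (log2 difference 1.54, adjusted p 0.449 by limma-trend). It was the 1 of the 21 tested factors whose groups did not overlap, where 9.92% of all tested genes had such groups. Foxd1 had 139 ± 40.7 and 197 ± 11.3 normalized counts (SD), with a log2 difference of 0.53 (adjusted p 0.471 by limma-trend). Mesenchyme markers were highest in knockout replicates 1 and 2, as given above, which were also the highest for Foxf2; their part in these values was not tested. The most abundant were Osr2, at 5059 ± 776 and 3888 ± 1028, and Foxc1, a factor of the anterior segment of the eye, at 1328 ± 255 and 1273 ± 72.6. Like Otx1, Osr2 had its lowest values in knockout replicates 1 and 2, at 3062 and 2979 normalized counts.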

How the data were processed

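The submitters' processing notes name GRCm38, TopHat2 2.0.9, HTSeq and DESeq2. The deposited signal columns are the authors' normalized counts (reads divided by 1 size factor per library), the log2 column is the authors' fold change, and the p-value columns are the authors' p and adjusted p. No source used here states a strand setting, so overlapping antisense genes cannot be told apart. The series' design text says that a further wild type library was removed by the submitters for contamination by other tissues; it was not analysed here.

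Dividing each library by its smallest value above 0 gave whole reads for 100% of values within 0.01 read. Because the values were normalized, log2(normalized count + 1) was tested with limma-trend (version 3.58.1, R 4.3.3, robust), a scale that understates changes of low genes. Genes needed a mean of 10 or more, and p-values were adjusted by the Benjamini-Hochberg method with 0.1 as threshold; edgeR 4.0.16 and DESeq2 1.42.0 on recovered reads were alternatives. These fits were tested on simulated data. Exon lengths and 3′ UTRs came from GENCODE M21 (GRCm38), and the microRNA from RefSeq (GRCm38.p6). Similar profiles have the smallest root mean square difference of log2 values centred per gene. Named genes were the members; the 3 smallest p and 2 highest means of each list of relatives, mesenchyme factors and LIM cofactors; the 3 nearest profiles; and the 2 highest means of each marker list; some genes this rule names are not reported here. Rpe65, Tyrp1, Tyr, Mlana, Mitf, Best1, Foxe3 and Lhx1 were chosen after their values were seen. Members, lists and alternatives were chosen with earlier results of these data known.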

Additional observations from a re-analysis of the deposited data

Results flagged for a closer look

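Otx2 in knockout replicate 1, at 201 normalized counts, lay far from the other 3 knockout libraries: the gap to the next one was 0.911 of the range of the group, above Dixon's 95% critical value for 4 samples. Chance singles out about 1 in 20 groups, and 10 groups of 4 were examined (7 genes and 3 ratios of genes). The flag for Otx2 rests on normalized counts. On the centred log2 scale the gap took up less of the range. There knockout replicate 1 was at 1.97, the next knockout library at -0.50 and the lowest at -1.34.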

How the results depend on the processing

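In each of the 19 other settings 0 members passed an adjusted p of 0.1. The number of genes past it, 0 by limma-trend, was 223 with DESeq2, 2 with the authors' filter, 3 with the replicate block, 3 without knockout libraries 1 and 2 together, 38 within the 4 libraries over 10000000 reads (a setting added after seeing the data), and between 0 and 84 when 1 library was left out, with 84 without wild type replicate 2. Within those 4 libraries 1 relative, Lhx1, passed. The libraries left out went the other way for Lhx1, with 132 normalized counts in wild type replicate 2 and 18.1 and 27.5 in knockout replicates 1 and 2. With all libraries its adjusted p was 0.593 by limma-trend. The cause of the changes in these numbers of genes was not tested. Same-numbered libraries had correlations of their deviations of 0.097, 0.11 and -0.011, and differently numbered ones between -0.21 and 0.16. These 3 values do not show that the numbers pair the libraries, and they are too few to show that they do not. With the replicate block Pitx1 turned to -0.25. Without knockout libraries 1 and 2 together the log2 difference turned sign for Pitx1 (-0.17), Lmx1b (0.15), Alx1 (-0.17) and Otx1 (0.015), and the Otx1 to Otx2 difference became 1.14. Within the 4 deeper libraries it turned for Pitx1 (-0.59), Lmx1b (0.33) and Alx1 (-0.52). Otx2 was 0.22 with edgeR and 0.23 with DESeq2. When 1 library was left out, the range was -0.34 to 0.34 for Pitx1, -0.18 to 0.13 for Lmx1b, -0.26 to 0.24 for Alx4, 0.33 to 1.11 for Alx1, -0.60 to -0.23 for Otx1, -1.07 to 0.035 for Otx2 -0.61 to 0.84 for the Otx1 to Otx2 difference and 0.44 to 1.10 for Alx1 to Alx4. Pitx3, which rests on 0 to 65 reads, kept its sign, between 0.22 and 2.66.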

Other observations

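LIM homeodomain factors such as Lmx1b act with cofactors, some of which bind their LIM domains. The 9 genes listed here as LIM cofactors do not all bind the LIM domains of such factors. All 9 were tested, 6 with higher and 3 with lower values in knockout (median log2 difference 0.11). By limma-trend, edgeR or DESeq2, 0 passed an adjusted p of 0.1, and 0 had an unadjusted p under 0.05. Ssbp3 had a wild type mean of 1758 ± 139 normalized counts (SD, n = 3) and a knockout mean of 1890 ± 31.2 (SD, n = 4), and Ssbp2 had 1285 ± 30.1 and 1323 ± 83.7. Rlim, a ubiquitin ligase that acts on LIM cofactors, had 1053 ± 31.2 and 1152 ± 86.5. Levels were less even for the scarcer genes of this list: Lmo3 ranged from 24.5 to 92.5 normalized counts over the 7 libraries and Lmo2 from 58.0 to 212. Ldb2 had 211, 108 and 178 normalized counts in wild type replicates 2, 3 and 4 and 305, 310, 150 and 217 in knockout replicates 1 to 4, highest in the same 2 knockout libraries as Alx1 (log2 difference 0.56, adjusted p 0.560 by limma-trend).

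Cryaa, the most abundant lens gene of the marker list, had 2342, 16.3 and 12.2 normalized counts across wild type, and 46.3, 956, 442 and 137 across knockout. It was highest in wild type replicate 2, with knockout replicate 2 next, while Pitx3 was highest in knockout replicate 2.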
